A study of Mus musculus with 16 samples.

Results

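Ptpn22 encodes PEP, the tyrosine phosphatase that the mutant mice of the study lack. It was examined together with 9 relatives, Ptpn12, Ptpn18, Ptpn1, Ptpn2, Ptpn6, Ptpn7, Ptpn11, Ptprc and Ptpre, which were chosen by name as phosphatases of the same superfamily that act in the cytoplasm or are common in blood cells. Ptprc, which encodes CD45, and the longer form of Ptpre are receptor-type phosphatases, and the other genes encode non-receptor ones. These 10 genes were 10 of the 39179 genes in the count tables, and all 10 passed the filter on low counts that left 13305 genes for testing. RNA-seq was done on bone marrow-derived mast cells (BMMCs), which are mast cells grown from bone marrow for 4 weeks with stem cell factor and IL3. The donors were male C57BL/6 mice, 8 to 10 weeks old, either wild-type (PEP+/+) or mutant (PEP-/-). All cells were sensitized with IgE for 3 h. Within each genotype, 1 group received IgE alone (IgE), 1 was activated with the antigen DNP at 200 ng/ml for 1 h (IgE DNP), 1 was kept with the glucocorticoid dexamethasone at 100 nM for 8 h (IgE DEX), and 1 received DEX and DNP (IgE DNP DEX). Each of the 8 conditions had 2 libraries, 16 in all, which were titled either with a number or with a letter. The sources used here do not say which bases of Ptpn22 the mutation removes, or how many mice gave each culture.

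Classical protein tyrosine phosphatases remove phosphate from tyrosine residues through a cysteine in a short conserved signature. When antigen crosslinks IgE on the high-affinity receptor FcεRI, Src-family kinases and Syk phosphorylate the receptor and its adaptors, and phosphatases set how far and how long this goes. PEP and its closest relatives PTP-PEST (Ptpn12) and BDP1 (Ptpn18) form the PEST group, which binds the adaptor PSTPIP1. Binding of the kinase CSK is known for members of this group as well.

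The bases that encode the signature are shown because they show how near each relative is to Ptpn22 at the catalytic site. Each line holds 18 codons of the coding strand from the transcript with the longest coding sequence in GENCODE M21 (GRCm38), with the 8 codons of the signature in capitals and 5 codons on each side in lower case.
Ptpn22: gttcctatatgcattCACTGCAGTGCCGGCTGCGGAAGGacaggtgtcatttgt
Ptpn12: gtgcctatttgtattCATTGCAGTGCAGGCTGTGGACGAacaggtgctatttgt
Ptpn18: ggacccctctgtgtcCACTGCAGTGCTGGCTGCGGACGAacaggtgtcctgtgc
Ptpn1: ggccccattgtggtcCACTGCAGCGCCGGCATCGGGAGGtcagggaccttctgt
Ptpn6: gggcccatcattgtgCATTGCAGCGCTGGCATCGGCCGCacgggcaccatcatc
Ptpn7: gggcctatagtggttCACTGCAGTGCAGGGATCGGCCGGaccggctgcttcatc
Ptpn11: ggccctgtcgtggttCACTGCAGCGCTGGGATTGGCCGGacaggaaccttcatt
Ptprc: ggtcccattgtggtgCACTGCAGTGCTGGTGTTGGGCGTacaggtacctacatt
Ptpre: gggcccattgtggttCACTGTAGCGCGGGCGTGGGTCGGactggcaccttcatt

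The stretch of Ptpn22 ran over chr3:103876715-103877335 on the plus strand and crossed from exon 8 into exon 9 of its 21 exons. The stretch of Ptpn12 differed from it at 10 of the 54 bases and that of Ptpn18 at 14. The stretches of the other 6 genes shown differed at 19 (Ptpn1) to 25 (Ptpn6) bases. The sixth codon of the signature was TGC or TGT, a cysteine codon, in the 3 genes of the PEST group. It was ATC or ATT, for isoleucine, in Ptpn1, Ptpn6, Ptpn7 and Ptpn11, and GTT or GTG, for valine, in Ptprc and Ptpre. Ptpre held a second stretch that matched the signature, since it has tandem phosphatase domains.

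The total count on genes ranged from 8612531 to 22143526 per library, with a median of 12814043.5. Libraries with titles of the same kind deviated from their condition means together in all 28 pairs of conditions, with correlations of the deviations between 0.45 and 0.80. This numbered or lettered set was therefore used as a block in a second fit. For the members, the values of that fit are given wherever they change a call in the comparisons below. The gene lists further below are given without the block unless stated. The numbered library of PEP+/+ IgE DNP DEX stood apart from the other numbered libraries, since the pairs that held its condition gave correlations of 0.45 to 0.55 and the other pairs 0.65 to 0.80. Levels are given as CPM, which are read counts per 1000000 of the library size. That size was summed over the tested genes and scaled between libraries (TMM), so it differs from the total count on genes. The summed level of 11 mast cell markers, among them Kit and Fcer1a, was 63205 to 103765 CPM and no marker was at 0. Neutrophil markers summed to at most 2.37 CPM, B and T cell markers to at most 0.881 CPM and macrophage and monocyte markers to 14.5 to 47.3 CPM. Basophil markers, 3 genes, summed to 539 to 623 CPM with IgE, 749.9 to 882 CPM with DNP, 228 to 392 CPM with DEX and 431 to 479 CPM with both, and their part in the results was not tested. In these bulk samples, fewer cells of a type and less RNA per cell cannot be told apart.

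Ptpn22 (ENSMUSG00000027843, chr3:103859795-103912247 on GRCm38, plus strand) had 15.9 and 11.3 CPM in the PEP+/+ libraries with IgE alone. It had 80.0 and 104 CPM with IgE DNP, 66.5 and 71.6 CPM with IgE DEX, and 160.4 and 175 CPM with IgE DNP DEX. Every treated PEP+/+ library thus lay above both PEP+/+ libraries with IgE alone, and the libraries with both agents were the highest. In the PEP-/- libraries the level was 0 to 3.03 CPM, so the genotypes did not overlap, as was so for 0.413% of all genes. The gene had no read in the numbered PEP-/- IgE library and in the lettered PEP-/- IgE DEX library, which allows up to 0.273 and 0.305 CPM (3 counts, counting error only). The PEP-/- IgE DNP libraries held 17 and 55 reads, 2.40% of the PEP+/+ level, while the PEP-/- IgE DNP DEX libraries held 7 and 13 reads, 0.532% of it. The fitted genotype difference was -7.36 ± 0.32 on the log2 scale (SE; edgeR, adjusted p = 1e-06), which depends on the prior count used near 0. Without the numbered PEP-/- IgE DEX library it was -8.53. Of all 13305 genes tested, 1.59% were called for the genotype.

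**Figure D1:**
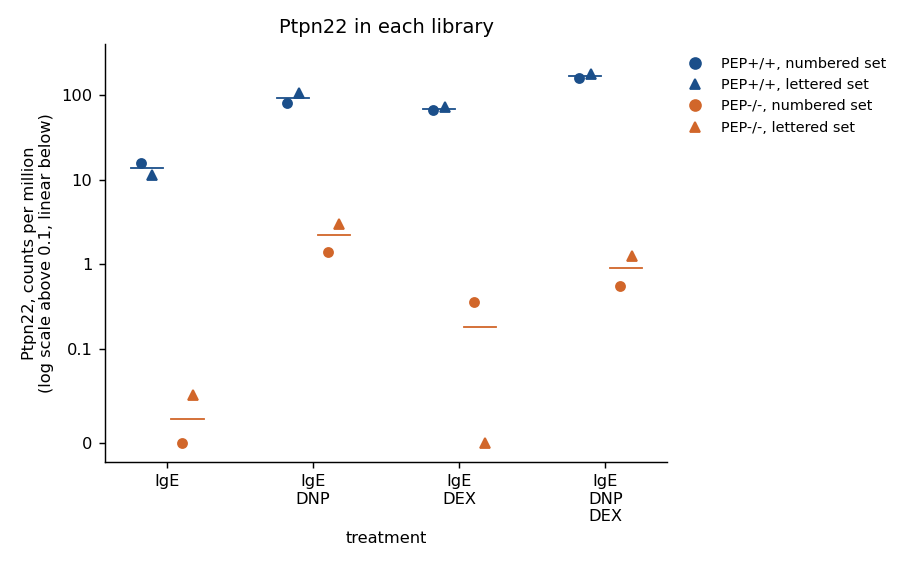
Ptpn22 in CPM (vertical axis, logarithmic above 0.1 and linear below) in each of the 16 libraries by treatment; colour is the genotype, circles are the numbered and triangles the lettered libraries, and bars are means of 2. The PEP+/+ libraries rise from 11.3 and 15.9 CPM with IgE to 160.4 and 175 CPM with IgE DNP DEX, and the PEP-/- libraries stay at or below 3.03 CPM.

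Within PEP+/+ cells, antigen raised Ptpn22 by 2.76 ± 0.45 on the log2 scale (SE, n = 2 per condition; edgeR, adjusted p = 0.00396), a contrast in which 5.9% of all genes were called. Dexamethasone given to sensitized cells raised it by 2.34 ± 0.44 (adjusted p = 0.0142; 3.18% of genes called in edgeR). Added to antigen, dexamethasone gave a difference of 0.86 ± 0.42, which was not called by edgeR without the block (adjusted p = 0.373, 3.03% of genes called) and was called with it (0.87, adjusted p = 0.0191, 18.9%). Antigen under dexamethasone gave 1.28 ± 0.42, again not called by edgeR without the block (adjusted p = 0.147, 3.84% of genes) and called with it (0.00164, 22.3%). The difference between the antigen change with and without dexamethasone, -1.48 ± 0.60, was called in neither edgeR fit (adjusted p = 1 without the block, where 0.015% of genes were called, and 0.0989 beside 0.481% with it). Without the lettered PEP+/+ IgE library, the antigen change was 2.53 with an adjusted p of 0.06 in edgeR. Leaving out any 1 of the 4 PEP+/+ libraries with IgE or IgE DEX ended the call for dexamethasone in sensitized cells, at adjusted p values from 0.0567 to 0.143 in edgeR.

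The promoter is shown because Ptpn22 was the only member called higher both after antigen and after dexamethasone in the edgeR fits of all 16 libraries. In 1 of 7 alternative fits Ptpn1 was called for dexamethasone in sensitized cells as well. RefSeq (GRCm38.p6) lists 2 starts for Ptpn22, and the 250 bases before the first, chr3:103859545-103859794 on the plus strand, read as follows.
Ptpn22: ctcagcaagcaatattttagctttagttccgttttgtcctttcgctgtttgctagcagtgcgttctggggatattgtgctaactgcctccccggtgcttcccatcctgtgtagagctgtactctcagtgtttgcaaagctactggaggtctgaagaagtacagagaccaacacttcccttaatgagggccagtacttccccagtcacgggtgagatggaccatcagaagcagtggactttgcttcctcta

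Both strands were searched for an AP-1 site (TGANTCA), a CRE (TGACGTCA), the glucocorticoid receptor hexamer (AGAACA), the full site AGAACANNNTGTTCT, which holds the hexamer on each strand, the NFAT core GGAAA and an NF-kB site, and none of these letters occurred in this window. The 250 bases before the second start held 1 hexamer and 1 GGAAA. Over the 13 listed starts of 8 members, the hexamer occurred before 3 (Ptpn22, Ptpn6, Ptprc), against 16.08% of the 32851 windows of the same length. AP-1 occurred before 1, a start of Ptpre, against 6.75%, CRE before 1, that of Ptpn11, against 1.55%, and GGAAA before 8, against 55.57%. NF-kB occurred before 0, against 7.25%, and the full glucocorticoid site before 0, against 0.01%. The table had no entry for Ptpn2 and Ptpn12.

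The genes whose log2 CPM followed Ptpn22 most closely over the 8 PEP+/+ libraries were Rab11fip4 (Pearson r = 0.985), Nfkbia (0.984), Dusp1 (0.980), Sirt2 (0.979) and Mapk14 (0.979). These 8 libraries are 4 treatments with 2 libraries each, so the values are a description of libraries that share their treatments. Nfkbia, the NF-kB inhibitor IκBα, had a mean of 20.2 CPM with IgE, 264 with IgE DNP, 145 with IgE DEX and 326 with IgE DNP DEX in PEP+/+ cells. Dusp1, a phosphatase of MAP kinases, had 0.998, 15.0, 19.0 and 46.8 CPM in the same order. Like Ptpn22 in PEP+/+ cells, both had their lowest mean with IgE alone and their highest with both agents. Both genes were picked by their correlation with Ptpn22 in these libraries, so this likeness follows from the choice.

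The comparison of genotypes asked whether relatives differed where Ptpn22 was missing. Of the 9 relatives, edgeR called 0, with 1 at an unadjusted p below 0.05 (Ptprc) and 0 called by DESeq2, while 1.59% of all genes were called. Ptprc, the leukocyte phosphatase CD45 that activates Src-family kinases, had 211, 263 and 380.3 CPM (lowest, median and highest of 8) in PEP+/+ cells and 246, 340.1 and 417 CPM in PEP-/- cells. These ranges overlapped. In each of the 8 comparisons of same-set libraries with the same treatment the PEP-/- library was higher, by 0.04 to 0.52 on the log2 scale. These 8 come from 2 replicate sets with an unknown number of mice, so their signs may not be independent. The share of all genes with 8 equal signs was not counted. The difference of Ptprc was 0.27 ± 0.11 (SE; 95% interval 0.04 to 0.50; edgeR, adjusted p = 0.267). It was called with the block (0.27, adjusted p = 0.0305), as were 17.4% of all genes. Median sums of the marker lists of other cells moved both ways, with overlapping ranges. In PEP+/+ and PEP-/- libraries they were 519 and 492 CPM for basophils, 2952 and 2877 CPM for platelets and 0.820 and 0.795 CPM for neutrophils. For eosinophils they were 8.80 and 11.2 CPM, and for B and T cells 0.159 and 0.234 CPM. The 10 macrophage and monocyte markers had a median sum of 24.2 CPM (highest 36.5) in PEP+/+ and 37.7 CPM (highest 47.3) in PEP-/- libraries, with C1qa at 0 and 5 of the 10 under 10 counts in all. The 5 dendritic cell markers had 19.5 CPM (14.7 to 39.7) and 30.5 CPM (23.4 to 42.9), with Cd209a at 0 and 3 of the 5 under 10 counts in all. Their part in the result was not tested. Ptpn12 was also higher in 8 of 8 same-set comparisons, to which the same limit applies. Its difference was 0.16 ± 0.14 (interval -0.14 to 0.46; edgeR, adjusted p = 0.695, with the block 0.104). Ptpre had a difference of 0.15 (interval -0.07 to 0.37).

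The other 6 relatives had genotype differences between -0.12 (Ptpn2) and -0.01 (Ptpn6). The 95% intervals bounded the difference most closely for Ptpn6 (-0.17 to 0.15) and Ptpn1 (-0.23 to 0.15), and were wider for Ptpn7 (-0.31 to 0.23) and Ptpn2 (-0.38 to 0.14). They were widest for Ptpn11 (-0.57 to 0.46) and Ptpn18 (-0.71 to 0.67), whose levels differed most between the replicate sets. Within single treatments edgeR called 0 of the 9 relatives, with 0 at an unadjusted p below 0.05, in each of the 4 treatments, and the differences lay between -0.29 and 0.40. Of all genes, 0.00752% were called in each treatment, which is 1 gene, Ptpn22, and with the block 1.69% with IgE, 1.86% with IgE DNP, 0.564% with IgE DEX and 0.0225% with IgE DNP DEX. The block called 0 of the 9 as well, with 1 at an unadjusted p below 0.05, Ptprc with IgE DNP DEX (0.39; edgeR, unadjusted p = 0.025, adjusted p = 0.421). The tests of whether antigen or dexamethasone acted differently in the genotypes called 0 of 9 in each of 4 contrasts, with and without the block, by DESeq2 as well, and with 0 at an unadjusted p below 0.05 in edgeR, and they called 0% of all genes. The estimates of those differences ranged from -0.36 to 0.43. Without the block their SEs ran from 0.21 (Ptpn6) to 0.90 (Ptpn18), so 0 calls do not show that the genotypes responded alike. The treatment results below are given as the mean change of both genotypes, a choice that does not rest on these tests.

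**Figure D2:**
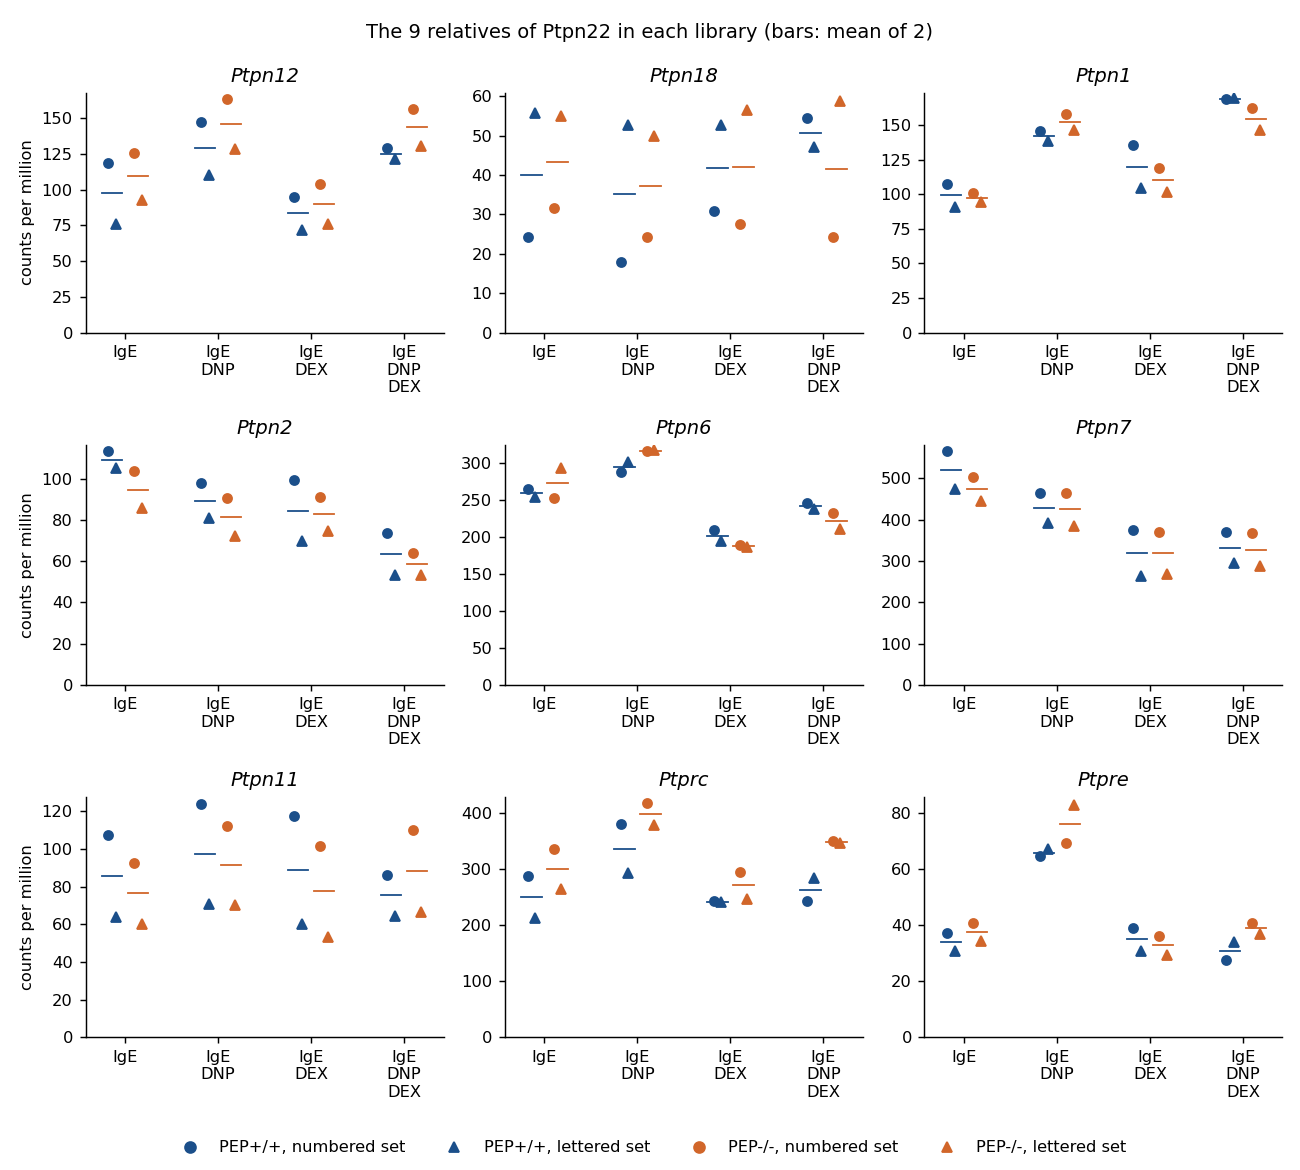
CPM (vertical axes, from 0) of the 9 relatives in each library by treatment; colour is the genotype, circles are the numbered and triangles the lettered libraries, and bars are means of 2. Ptpre is at 64.5 to 82.7 CPM with IgE DNP and at 27.6 to 40.7 CPM in the other 12 libraries, and the sets separate in Ptpn11 and, but for 1 circle at 54.4 CPM, in Ptpn18.

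Ptpre encodes PTPε, a phosphatase with membrane-bound and cytosolic forms, and had the largest fold among the relatives after antigen. It had 37.1, 30.8, 40.6 and 34.1 CPM with IgE (PEP+/+ numbered and lettered, then PEP-/- numbered and lettered). With IgE DNP it had 64.5, 66.9, 69.2 and 82.7 CPM in the same order. With IgE DEX it had 38.9, 30.7, 36.2 and 29.4 CPM, and with IgE DNP DEX 27.6, 33.7, 40.7 and 36.8 CPM. All 4 libraries with antigen alone lay above the other 12, and the other 3 treatments overlapped. Antigen raised Ptpre by 0.99 ± 0.15 (1.98-fold; edgeR, adjusted p = 0.000729). Dexamethasone lowered it in activated cells, by -1.03 ± 0.15 (edgeR, adjusted p = 0.000974), and gave -0.07 ± 0.14 in sensitized cells (adjusted p = 0.894). Antigen under dexamethasone gave 0.03 ± 0.14 (edgeR, adjusted p = 0.931).

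The antigen change of Ptpre under dexamethasone was thus smaller by -0.96 ± 0.20 than that without it. This difference was not called by edgeR without the block (adjusted p = 0.126, 0.331% of genes called) and was called with it (-0.96, adjusted p = 0.00724, 1.57%). DESeq2 called it as well (adjusted p = 0.00456). It was -1.13 in PEP+/+ and -0.78 in PEP-/- cells. In the library that stood apart, the numbered PEP+/+ IgE DNP DEX, Ptpre was 0.49 lower on the log2 scale than in its IgE DEX partner, whereas in the other 3 pairs it was 0.13 to 0.32 higher. Without that library the difference was -0.86 (edgeR, adjusted p = 0.321), and the blocked fit gave -0.83 (adjusted p = 0.00518).

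An antisense gene, 5830432E09Rik, shares exon bases with Ptpre on the opposite strand. It held 12 to 187 reads per library, 3.52 to 12.5% of the reads of Ptpre. It changed in the same direction as Ptpre with antigen, by 1.20 (edgeR, adjusted p = 0.0177), and with dexamethasone in activated cells, by -2.16 (adjusted p = 0.00132). With dexamethasone in sensitized cells it fell by -1.27 (edgeR, adjusted p = 0.026), where Ptpre gave -0.07 and was not called. The libraries came from a stranded kit, but the strand setting of the counting is not given in the sources used here, so reads of both genes cannot be told apart with certainty.

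**Figure D3:**
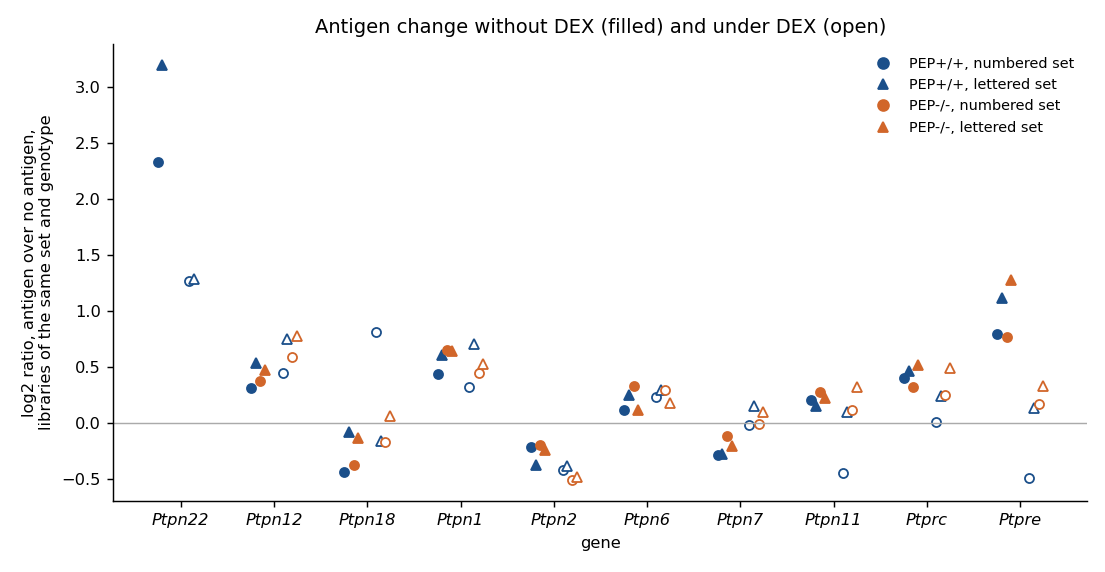
Log2 ratio of CPM with antigen over CPM without it (vertical axis) for libraries of the same set and genotype, without dexamethasone (filled) and under it (open), for each gene; Ptpn22 is shown in PEP+/+ only. The 4 filled points of Ptpre lie between 0.77 and 1.28 and its open points between -0.49 and 0.32, while the points of Ptpn1 lie above 0 and those of Ptpn2 below 0 in both series.

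Antigen without dexamethasone changed 2 of the 9 relatives in edgeR (16.7% of all genes tested were called), Ptpre and Ptpn1, both upwards. With the block it changed 5, adding Ptpn12 and Ptprc upwards and Ptpn2 downwards, against 37.9% of all genes. Antigen under dexamethasone changed 1 of 9 without the block (Ptpn1, against 12.6% of all genes) and 4 with it (Ptpn1, Ptpn12 and Ptpn6 upwards and Ptpn2 downwards, against 37.6%). The antigen contrasts share no library with each other. The contrasts of antigen and of dexamethasone in sensitized cells share the IgE libraries.

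Ptpn1 encodes PTP1B, which dephosphorylates receptor kinases and JAKs. It had 108, 90.8, 101 and 94.2 CPM with IgE and 146, 138, 158 and 146 CPM with IgE DNP, in the order of libraries used for Ptpre. It had 135, 104, 119 and 102 CPM with IgE DEX and 169, 169, 162 and 146 CPM with IgE DNP DEX. The libraries with antigen lay above those without it in both cases, with no overlap. Antigen raised Ptpn1 by 0.58 ± 0.12 without dexamethasone (edgeR, adjusted p = 0.00726) and by 0.49 ± 0.12 under it (adjusted p = 0.0242). The second call was lost when any of 3 libraries was left out (edgeR, adjusted p = 0.0562 to 0.114), namely the lettered PEP+/+ IgE DEX, the lettered PEP-/- IgE DEX and the numbered PEP-/- IgE DNP DEX library. It was also lost without a filter on low counts (0.134) and with only the conditions compared (0.0927).

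Ptpn12 encodes PTP-PEST, which acts on CAS and other adhesion proteins and is the nearest relative of PEP. It had 119, 76.1, 126 and 92.9 CPM with IgE and 147, 110.4, 163 and 129 CPM with IgE DNP. With IgE DEX it had 94.8, 72.1, 104 and 76.1 CPM and with IgE DNP DEX 129, 121, 156 and 131 CPM. The libraries with antigen overlapped those without it in the absence of dexamethasone and lay above them in its presence, and each of the 8 same-set comparisons was higher with antigen. The change was 0.41 ± 0.19 without dexamethasone (edgeR, adjusted p = 0.201, with the block 0.00249) and 0.63 ± 0.19 under it (adjusted p = 0.0572, with the block 0.000108).

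Ptpn2 encodes TC-PTP, a close relative of PTP1B that acts on JAK and STAT proteins in the nucleus and cytoplasm. It lies on chromosome 18 and its sequence was left out above. It had 113, 105, 104 and 85.8 CPM with IgE, 97.9, 80.9, 90.7 and 72.5 CPM with IgE DNP, and 99.4, 69.8, 91.3 and 74.8 CPM with IgE DEX. With both agents it had 73.9, 53.2, 64.0 and 53.5 CPM, and only the first of these exceeded any library of another treatment. In contrast to Ptpn1, Ptpn2 was lower in 4 of 4 same-set comparisons in each of the 4 contrasts of antigen and of dexamethasone, which share libraries, so these signs are not independent. The changes were called only with the block: -0.26 for antigen (edgeR, adjusted p = 0.0282, without the block 0.394), -0.29 for dexamethasone in sensitized cells (0.0204 and 0.435), -0.49 for dexamethasone in activated cells (0.000666 and 0.0976) and -0.45 for antigen under dexamethasone (0.00101 and 0.105).

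Ptprc had 288, 211, 335 and 264 CPM with IgE and 380.3, 292, 417 and 378 CPM with IgE DNP, and these overlapped. The change with antigen was 0.42 ± 0.15 (edgeR, adjusted p = 0.0826, with the block 0.00732), and it was higher in 4 of 4 same-set comparisons. Under dexamethasone it was 0.24 ± 0.15 (adjusted p = 0.346 in edgeR). The counts are summed over the gene and do not separate the isoforms of CD45.

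Dexamethasone in sensitized cells changed 2 of the 9 relatives in edgeR, Ptpn6 and Ptpn7, both downwards (9.37% of all genes were called). With the block it changed 3, adding Ptpn2, against 26.7%. In activated cells it changed 2 of 9, Ptpre and Ptpn6, both downwards, against 10.7% of all genes, and with the block 4, adding Ptpn7 and Ptpn2, against 33.3%. No relative was called higher with dexamethasone in these 4 fits. Ptpn1 gave 0.23 in sensitized cells and was not called (edgeR, adjusted p = 0.366, with the block 0.0725). Ptpn22, tested within PEP+/+ only, was called higher except in activated cells without the block (edgeR, adjusted p = 0.373).

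Ptpn6 encodes SHP-1, the phosphatase that inhibitory receptors recruit through their ITIMs. It had 265, 254, 253 and 294 CPM with IgE and 210.0, 194, 189 and 187 CPM with IgE DEX. With IgE DNP it had 288, 302, 317 and 318 CPM and with IgE DNP DEX 246, 238, 232 and 212 CPM. All libraries with dexamethasone lay below those with the same antigen treatment without it. The change was -0.45 ± 0.10 in sensitized cells (edgeR, adjusted p = 0.0184) and -0.40 ± 0.10 in activated cells (0.0306). Each call was lost when any of several libraries was left out, 6 of 16 for the first and 8 of 16 for the second (edgeR, adjusted p = 0.0517 to 0.126), with changes of -0.35 to -0.46 there. Without a filter on low counts the adjusted p values were 0.267 and 0.344, and with only the conditions compared 0.0757 and 0.169 (edgeR). Antigen under dexamethasone gave 0.25 ± 0.10 (adjusted p = 0.154 in edgeR, with the block 0.0357), with no overlap of the groups.

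Ptpn7 encodes HePTP, a phosphatase of the MAP kinases ERK and p38 in blood cells. It had 566, 475, 505 and 446 CPM with IgE and 375, 265, 371 and 269 CPM with IgE DEX, which did not overlap. It had 465, 391, 465 and 386 CPM with IgE DNP and 370.1, 294, 368 and 288 CPM with IgE DNP DEX, again without overlap. Dexamethasone changed it by -0.64 ± 0.17 in sensitized cells (edgeR, adjusted p = 0.0406). In activated cells the difference was -0.37 ± 0.17 (adjusted p = 0.221 in edgeR, with the block 0.00442). The first call was lost without any of 6 libraries (edgeR, adjusted p = 0.0674 to 0.17), the 4 with IgE and the lettered libraries with IgE DEX, and with only the conditions compared (0.0846).

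Counted by groups of 4 libraries that did not overlap, antigen separated 2 of the 9 relatives (22.2% of all genes) and antigen under dexamethasone 3 of 9 (19.4%). Dexamethasone separated 2 of 9 in sensitized cells (15.6% of all genes) and 3 of 9 in activated cells (16.6%).

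**Figure D4:**
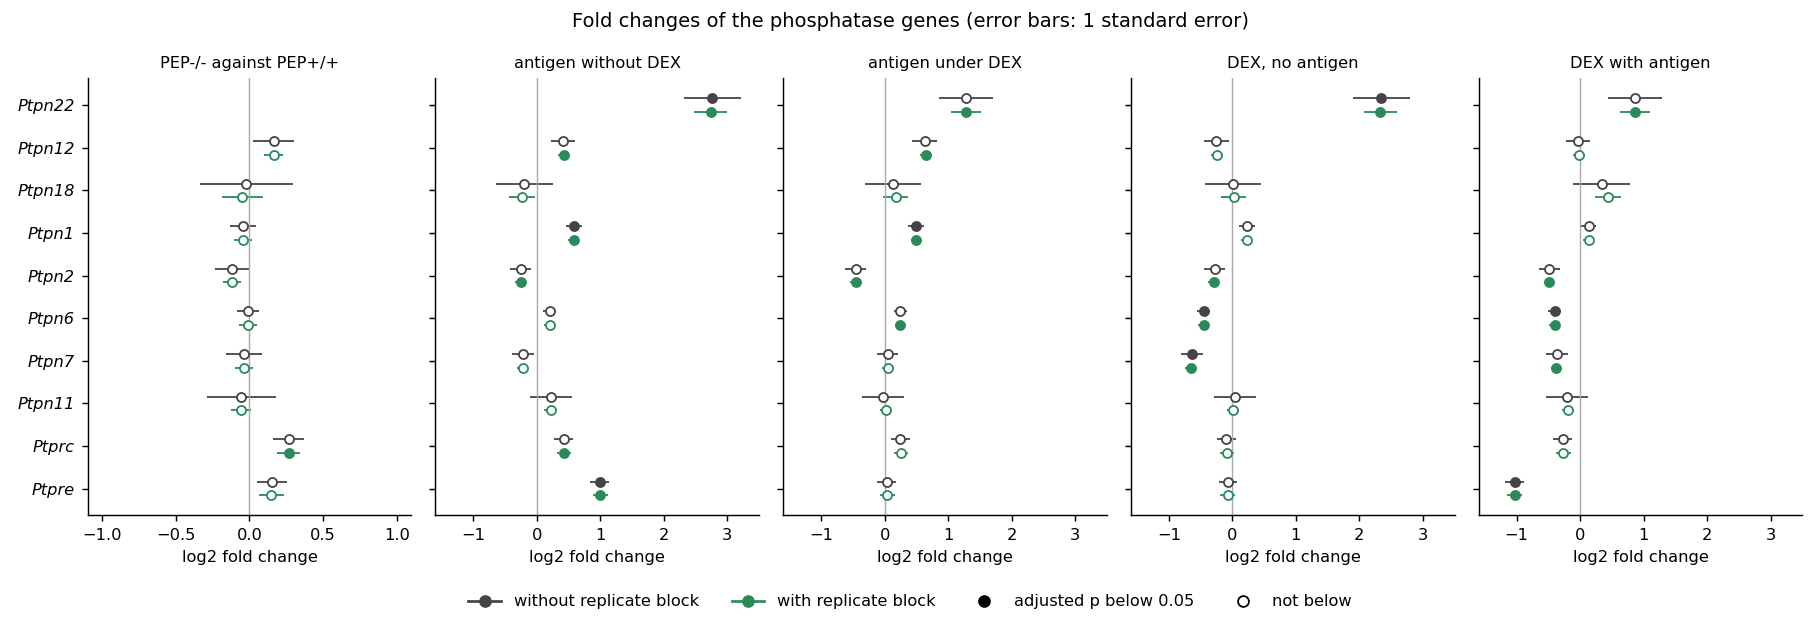
Log2 fold change (horizontal axes) of each gene in 5 comparisons, with error bars of 1 SE; grey is the edgeR fit without and green the fit with the replicate block, and filled points had an adjusted p below 0.05. Treatment changes are means of both genotypes, except for Ptpn22, which is shown within PEP+/+ and left out of the first panel, where it was at -7.36; only Ptpn22 is filled to the right of 0 in the dexamethasone panels.

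Over all 16 libraries, edgeR called Ptpn18 and Ptpn11 in no treatment or genotype comparison, with the block or without it. With the block and without the numbered PEP+/+ IgE DNP DEX library, Ptpn11 was called for antigen (0.20; edgeR, adjusted p = 0.0299). Ptpn11 encodes SHP-2, which acts with Gab2 downstream of Kit and FcεRI. It had 86.4 to 124 CPM in the 8 numbered and 53.4 to 70.7 CPM in the 8 lettered libraries, which did not overlap, a difference of -0.74 (edgeR, adjusted p = 7.57e-07, lettered minus numbered). Ptpn18 had 47.0 to 58.9 CPM in the lettered libraries and 18.0 to 31.6 CPM in the numbered ones but for PEP+/+ IgE DNP DEX, which had 54.4 CPM (0.93, adjusted p = 7.06e-05 in edgeR). The set moved with Ptpn12 (-0.38), Ptpn7 (-0.33), Ptpn2 (-0.31) and Ptpn1 (-0.16) as well, with adjusted p from 2e-04 to 0.0334 in edgeR. Of the marker lists, the neutrophil list also separated by set, at 1.23 to 2.37 CPM in numbered and 0 to 0.36 CPM in lettered libraries. The platelet list did so at 1939.8 to 2890 CPM in numbered and 3015 to 3921 CPM in lettered libraries. Nearly all of the platelet sum was Itga2b, which mast cells also express, and its defining marker Pf4 was at 0 to 0.189 CPM. The labels do not say what the sets share, and the part of these differences in the results was not tested.

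Levels were compared between genes as RPKM, which is CPM per kilobase of the joined exons. In PEP+/+ cells the mean over 8 libraries was 89.1 ± 13.0 (SD) for Ptpn6, 65.6 ± 16.2 for Ptpn7, 31.0 ± 7.44 for Ptpn12, 27.7 ± 6.56 for Ptpn2 and 23.9 ± 5.31 for Ptpn1. Below these came Ptprc (14.9 ± 2.84), Ptpn22 (12.6 ± 8.80), Ptpn11 (11.6 ± 3.49), Ptpn18 (6.47 ± 2.34) and Ptpre (4.05 ± 1.52). Ptpn6 was above Ptpn7 and Ptpn7 above Ptpn12 in 8 of 8 libraries, as was Ptpn1 above Ptprc. Ptpn12 and Ptpn2, and Ptpn22 and Ptpn11, were each in either order in 4 of 8 libraries. Ptpn22 had the widest range as a ratio of the highest to the lowest library, 1.66 to 25.8 RPKM. With the length of the longest transcript in place of the joined exons, Ptprc moved from sixth to the third place (47.5 RPKM) and Ptpn6 and Ptpn7 came to 108 and 107 RPKM.

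**Figure D5:**
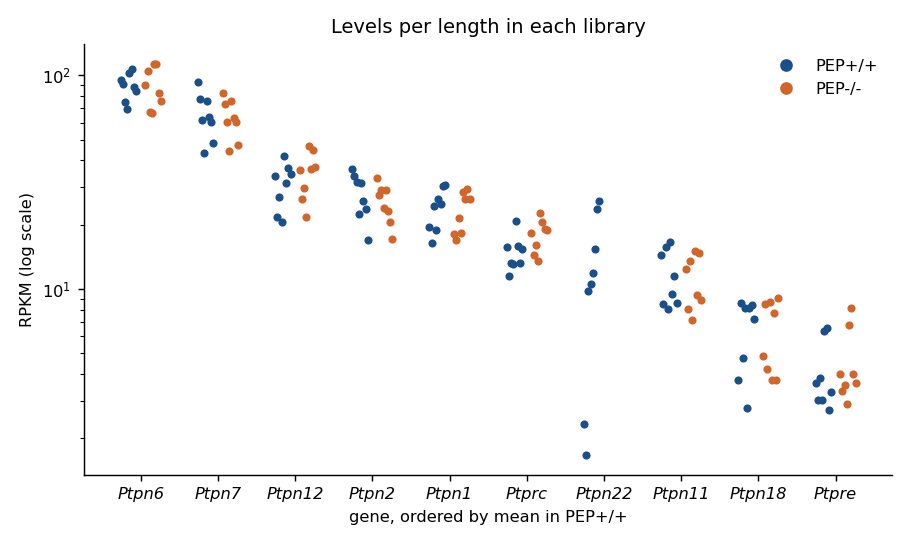
RPKM (vertical axis, log scale) of each gene in each library, ordered by the mean in PEP+/+ cells; colour is the genotype, and Ptpn22 is shown in PEP+/+ only. Ptpn6 and Ptpn7 stand above the other genes and Ptpn22 covers the widest range on the log scale, 1.66 to 25.8 RPKM.

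Of 28 other classical tyrosine phosphatases, 12 passed the filter. Antigen changed 1 of them, Ptpn23, a phosphatase of endosomal sorting, by 1.33 ± 0.26 (edgeR, adjusted p = 0.00498), against 16.7% of all genes called. Ptpn23 also rose under dexamethasone, by 0.89 ± 0.26 (edgeR, adjusted p = 0.0459). Dexamethasone changed 1 in each state, Ptprs, by -1.57 ± 0.33 in sensitized (edgeR, adjusted p = 0.0103) and -1.37 ± 0.33 in activated cells (0.0212), against 9.37% and 10.7% of all genes. Antigen under dexamethasone lowered Ptpn21 and Ptpn9, with -1.18 and -1.02, so that 3 of the 12 were called against 12.6% of all genes. The list's median change was -0.47 for dexamethasone in activated cells, where that of all genes was -0.01, and 6 were called lower with the block, where 33.3% of all genes were called in either direction. For the genotype 0 of the 12 were called without the block, against 1.59% of all genes. With the block 2 were called, both lower, against 17.4%.

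Of 24 known partners and substrates of the PEST group, 21 passed the filter. Antigen raised 5 and lowered 3, against 16.7% of all genes called. Among those raised were Traf3, a binding partner of PEP in myeloid cells (1.16 ± 0.21; edgeR, adjusted p = 0.00291), Ptk2b, the kinase PYK2 (1.02 ± 0.19; 0.00331), and the adaptor Pstpip1 (0.84 ± 0.21; 0.0176). Dexamethasone in sensitized cells raised 5 and lowered 2, against 9.37%. The Src-family kinase Lyn, which starts FcεRI signalling, rose by 1.01 ± 0.10 (edgeR, adjusted p = 9.72e-05), the ubiquitin ligase Cblb by 1.19 ± 0.21 (0.00362), and Wipf1, which binds WASP, by 0.78 ± 0.10 (0.000604). In activated cells 5 rose and 2 fell, against 10.7%, with Lyn at 0.98 ± 0.10 and Cblb at 1.15 ± 0.21. Antigen under dexamethasone raised 4 and lowered 2, against 12.6%. For the genotype 0 of the 21 were called without the block, against 1.59% of all genes. With the block 2 were called, both higher in PEP-/- cells, against 17.4%.

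Of 20 docking proteins and receptors of SHP-1 and SHP-2, 16 passed the filter. Antigen raised 2, Cd33 (2.14 ± 0.28; edgeR, adjusted p = 0.000303) and Siglecf (2.18 ± 0.53; 0.0153), both sialic acid receptors, against 16.7% of all genes called. Dexamethasone in sensitized cells raised 1, the adaptor Gab3 (1.18 ± 0.13; adjusted p = 0.000184 in edgeR), and lowered 3 inhibitory receptors, against 9.37%. These were Sirpa (-0.93 ± 0.14), Lair1 (-1.24 ± 0.21) and Milr1 (-1.13 ± 0.29), and the same 4 genes changed in the same directions in activated cells, against 10.7%. Under dexamethasone antigen raised 1, Cd33 (1.47 ± 0.27), against 12.6%. With the block, 7 of the 16 were called higher in PEP-/- cells, where without it 0 were called and the median difference was 0.28 (0.02 for all genes). Of all genes, 17.4% were called with the block. The macrophage and monocyte sum (median 24.2 CPM in PEP+/+ and 37.7 CPM in PEP-/- cells) and the dendritic cell sum (19.5 and 30.5 CPM) moved in the same direction. The medians of the other lists moved both ways, that of basophils from 519 to 492 CPM. The part of such cells in this count was not tested.

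The 20 tested genes within 1 Mb of Ptpn22 on chromosome 3 were examined as its neighbours. For the genotype edgeR called 0 of 20 without the block. With the block it called 5, Bcas2 (-0.33), Slc16a1 (-0.81), Ap4b1 (-0.31) and Capza1 (-0.59) downwards and Bcl2l15 (0.92) upwards, at adjusted p values of 9.87e-05 to 0.0185, against 17.4% of all genes. These 5 were named after their values were seen.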

How the data were processed

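RNA of 16 BMMC samples was sequenced by the authors from a stranded mRNA kit. Reads were aligned with TopHat2 to GRCm38 with the Ensembl annotation and counted per gene with HTSeq. The authors deposited whole-number counts per gene for each sample, and 5 more rows counted reads on no gene or on several. These rows held 29.1 to 49.6% of all entries and were left out here. Samples were grouped by genotype and treatment from the labels. Gene symbols and positions came from GENCODE M21, in which 37607 of 39179 identifiers (95.99%) were found. Each of the 10 members matched 1 identifier.

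Library sizes were scaled by TMM, and edgeR 4.0.16 (glmQLFit and glmQLFTest, R 4.3.3) was run on all 16 samples with 1 mean per condition and 8 residual degrees of freedom, after filterByExpr with a minimum count of 10. Adjusted p-values (Benjamini-Hochberg) run over all 13305 genes tested, and a gene was called below 0.05. The SE is that of the log2 fold change. The second fit had the replicate set as a block, taken from numbered against lettered titles. Same-set samples deviated together in 28 of 28 pairs of conditions (r above 0.1), and the coefficient of variation between replicates was 0.312 without and 0.133 with the block. Data were also simulated from these counts, once with the spread of the fit without the block and once with the smaller spread of the blocked fit. Of genes with a log2 change of 1 between genotypes, 71.4% and 97.4% were recovered, and for antigen without dexamethasone 32.6% and 86.8%. No set effect was simulated, so this gain follows from the spread put in and is no test of the block. Same-set comparisons are log2 ratios of CPM with 0.1 added. They come from 2 replicate sets, so counts of their signs may not be independent. Depth was 8612531 to 22143526 counts on genes. Nothing in the labels says that replicates came from separate mice, although the design text calls them biological, so p-values measure the spread between these samples, which may be technical. Replicates differed by more than counting noise in every condition.

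The alternatives were the block, DESeq2 1.42.0, its size factors in edgeR, other filters on low counts, only the conditions compared, and each sample left out. The members and lists were chosen with earlier results of these data known. All members are named. Of each list, the genes named are those called in a treatment comparison, at most 4 per comparison by adjusted p, fewer where the text groups them. 1 gene that this rule names is not reported here. Lilrb4a and Lilrb4 of the SHP-1 and SHP-2 list were not found by symbol. Ptpn22 was tested for treatment within PEP+/+ and left out of the interactions with genotype.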

Additional observations from a re-analysis of the deposited data

Results flagged for a closer look

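The antigen change of Ptpre differed between cells with and without dexamethasone, by -0.96 on the log2 scale with the replicate block (edgeR, adjusted p = 0.00724; 0.126 without the block), which a test of the difference itself picked out. Both genotypes had a difference of the same sign, and leaving out the numbered PEP+/+ IgE DNP DEX library gave -0.83 with the block. Over 6 alternatives the adjusted p of edgeR and DESeq2 ran from 0.00456 to 0.238, with 3 below 0.05. Without the block, leaving out each of the 16 libraries in turn gave adjusted p values of 0.136 to 0.453 in edgeR, so none of these fits called it.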

How the results depend on the processing

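Of the 60 log2 fold changes of the members in the 6 main comparisons, DESeq2's size factors in edgeR changed no call or direction. Counts of members called are given as genotype, antigen, dexamethasone in sensitized cells, dexamethasone in activated cells, antigen under dexamethasone and the interaction of both agents, which came to 1, 3, 3, 2, 1 and 0. With the replicate block they were 2, 6, 4, 5, 5 and 1, so the block adds calls and removes none. Of all genes, 1.59, 16.7, 9.37, 10.7, 12.6 and 0.331% were called without the block in these comparisons, in the same order. With it 17.4, 37.9, 26.7, 33.3, 37.6 and 1.57% were called, so calls rose for all genes as well. With the block and without the numbered PEP+/+ IgE DNP DEX library, an alternative chosen after seeing the data, the counts of members were 2, 9, 6, 5, 6 and 1. DESeq2 gave 4 for antigen under dexamethasone and 1 for the interaction. Without a filter on low counts dexamethasone in activated cells gave 1 and antigen under dexamethasone 2. With at least 10 counts in every sample Ptpn22 was not tested, so the genotype gave 0, and antigen under dexamethasone gave 2. With only the conditions compared dexamethasone gave 1 in sensitized and 1 in activated cells. Leaving out 1 sample gave 0 to 3 for dexamethasone in sensitized cells, 1 to 2 in activated cells and 0 to 1 for antigen under dexamethasone. Over each genotype alone and each treatment alone, 12 calls became 31 with the block, 5 with at least 10 counts in every sample, 4 with only the conditions compared and 38 with the block and without that library; 0 interactions with genotype were called under each alternative run. The causes were not tested. No share of all genes is given here for the other alternatives or for the last counts. Those counts therefore describe the settings and are no result about the members.

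A direction turned 69 times, in each case for a change that was called neither before nor after. Leaving out 1 sample gave the following ranges where it did so. For the genotype these were -0.19 to 0.087 (Ptpn11), -0.22 to 0.22 (Ptpn18), -0.089 to 0.0068 (Ptpn1), -0.039 to 0.014 (Ptpn6) and -0.10 to 0.030 (Ptpn7). For antigen they were -0.019 to 0.44 (Ptpn11) and -0.70 to 0.15 (Ptpn18). For dexamethasone in sensitized cells they were -0.24 to 0.26 (Ptpn11), -0.29 to 0.37 (Ptpn18), -0.20 to 0.026 (Ptprc) and -0.16 to 0.0096 (Ptpre). For dexamethasone in activated cells they were -0.40 to 0.038 (Ptpn11), -0.11 to 0.097 (Ptpn12) and -0.027 to 0.85 (Ptpn18). For antigen under dexamethasone they were -0.23 to 0.25 (Ptpn11), -0.24 to 0.43 (Ptpn18), -0.074 to 0.18 (Ptpn7) and -0.053 to 0.12 (Ptpre). For the interaction they were -0.47 to 0.032 (Ptpn11), -0.029 to 0.85 (Ptpn18), -0.18 to 0.0075 (Ptpn1) and -0.0094 to 0.11 (Ptpn6). The replicate block turned Ptpn11 for antigen under dexamethasone to 0.019. With the block and without the numbered PEP+/+ IgE DNP DEX library the values were 0.13 (Ptpn18, genotype), -0.0055 (Ptpn11, dexamethasone in sensitized cells), 0.078 (Ptpn12, dexamethasone in activated cells), and -0.16 (Ptpn18) and 0.12 (Ptpn11) for antigen under dexamethasone. With 2 samples per condition, simulated antigen changes of 0.5 were recovered in 0% of genes at the spread of the fit without the block. At the smaller spread of the blocked fit, with no set effect simulated, 28.8% were recovered.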
